A study of Danio rerio with 6 samples.

Results

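The genes described here mark the walls of blood and lymphatic vessels in the brain of adult male zebrafish. They are flt4, rgs5a, kdr, flt1, cdh5, cldn5a, cldn5b, robo4, mfsd2aa and pdgfrb, 10 of the 15391 gene names on the array. The genes were chosen with earlier results of these data known. Targets were then matched to them by name. A target sequence belongs to the set if its symbol in the array annotation is one of these names or an older synonym. This gave 11 targets, and 4 more, for cdh5, cldn5a, cldn5b and kdr, carry no symbol in that annotation and were found through their RefSeq accession, so 15 of 38489 targets are described. Of the 11, 2 are labelled kdr on the array but are annotated to chromosome 14, where the gene of that older name is now called kdrl, and they are given here as kdrl. The kdr of today, once kdrb, has 3 targets, pdgfrb has 2 and each other gene has 1.

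The fish were AB strain males of 12 months. Lead-exposed brains came from 3 fish that had been kept as embryos in water with lead acetate at 100 ppb, from less than 2 to 72 hours after fertilization. Control brains came from 3 fish handled the same way at 0 ppb. All 6 then lived in water without lead, and RNA of 1 whole brain was hybridised to each 1-colour array. Whether fish of 1 group shared a tank is not given in the labels, so a p-value here sets the difference against the spread of 3 fish a group, part of which may be technical. The controls took the first 3 positions of the scanned images and the lead-exposed brains the last 3, so that position and exposure cannot be told apart. Median intensities of the arrays, on the log2 scale, ran from 10.96 to 11.02, and 50.6% to 58.3% of targets stood above the 95th percentile of the array's random-sequence probes, the measure of background used here. The neuronal gene snap25a was bright in all 6 samples, at 15.16 to 15.21 in lead-exposed and 15.22 to 15.27 in control brains.

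Vessels of the vertebrate brain are tubes of endothelial cells wrapped by pericytes. Endothelial cells read vascular endothelial growth factors through receptor kinases. Kdr and Kdrl are the zebrafish counterparts of the main angiogenic receptor. Flt1 binds the same ligands and acts largely as a trap for them. Flt4 is a receptor of Vegfc on lymphatic and venous endothelium. In zebrafish, cells of lymphatic type also lie singly in the meninges along the vessels on the brain surface. Cdh5 (VE-cadherin) holds endothelial cells together, Robo4 is a guidance-type receptor of endothelium, claudin 5 seals the tight junctions of the blood-brain barrier, and Mfsd2a carries lipids with docosahexaenoic acid across it, as shown in mice. Pericytes are recruited through the receptor Pdgfrb and express Rgs5, which shortens signals of G protein-coupled receptors.

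In lead-exposed brains, flt4 and rgs5a had lower intensities than in controls on every array, while most of the genes shared by all endothelium did not. Intensities of flt4 averaged 1.75-fold higher in controls, and those of rgs5a 1.64-fold higher in controls. The VEGF receptor gene kdrl averaged 1.26-fold and 1.28-fold higher in lead-exposed brains in its 2 targets, with overlapping groups in the first of these. Both targets read the same gene in the same fish and are not separate evidence. The receptor gene flt1 and the claudin gene cldn5b also had higher values in lead-exposed brains, but both were above background on 0 of 6 arrays, so no fold is given for them. Going the other way, the endothelial gene robo4, above background on all 6 arrays, averaged 1.47-fold higher in controls, with overlapping groups. No target on the array passed an adjusted p of 0.05 in limma. The unadjusted p in that fit was 0.082 for the first kdrl target and 0.0529 for robo4. Those of flt4, rgs5a, flt1, cldn5b and the second kdrl target were at unadjusted p under 0.05, as were 7.19% of all targets, without passing a test over the whole array. Whether flt4 differs from kdr, or rgs5a from pdgfrb, was not settled by the direct comparisons given below.

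**Figure D1:**
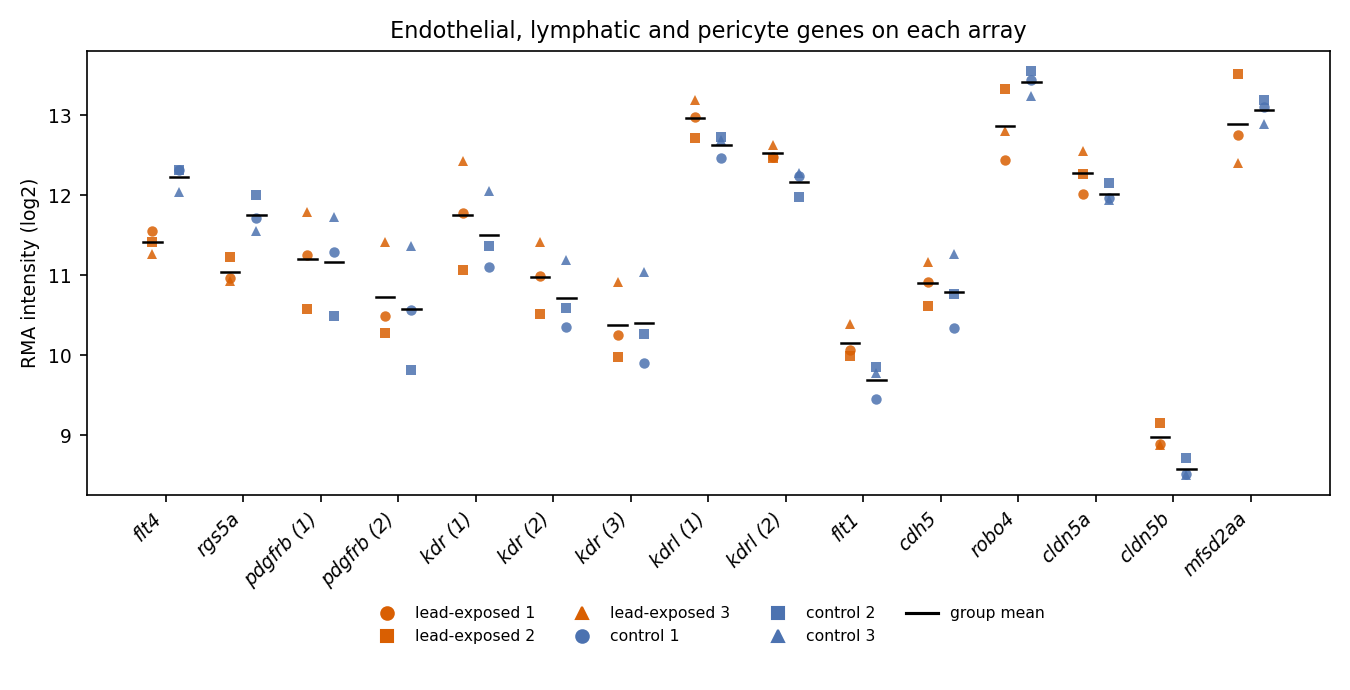
RMA intensity (log2, vertical axis) of the 15 targets on each of the 6 arrays, with lead-exposed points left of control points, replicates 1, 2 and 3 as circles, squares and triangles, and bars at group means. Numbers in brackets order the targets of 1 gene from bright to dim. For flt4 and rgs5a all lead-exposed points lie below all control points, while for kdr, cdh5 and pdgfrb the groups overlap.

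The target of flt4 is annotated to chromosome 14 at 10437826 to 10577429 and has 3 probes. Its RMA intensity, on the log2 scale used throughout, was 11.55, 11.42 and 11.27 in lead-exposed brains 1 to 3, against 12.31, 12.31 and 12.04 in control brains 1 to 3. The lowest control stood clearly above the highest lead-exposed brain, so the groups did not overlap. The means were 11.41 ± 0.14 in lead-exposed and 12.22 ± 0.16 in control brains (SD, n = 3 each), a difference of −0.81 (SE 0.14, 95% interval −1.15 to −0.47). The unadjusted p in limma was 0.000844, the 48th smallest of all targets, and the adjusted p was 0.568. All 6 values were above the random-sequence limit. In whole brain, fewer cells of a type and less RNA per cell cannot be told apart, here and for every gene below.

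The target of rgs5a, named zgc:64006 on the array, lies on chromosome 6 at 39524301 to 39538216 and also has 3 probes. Its values were 10.97, 11.23 and 10.93 in lead-exposed brains, against 11.71, 12.00 and 11.55 in controls. Again the groups did not overlap, and all 6 arrays were above the random-sequence limit. The means were 11.04 ± 0.16 in lead-exposed and 11.75 ± 0.23 in control brains (SD, n = 3 each), a difference of −0.71 (SE 0.17, 95% interval −1.10 to −0.32), with an unadjusted p of 0.00371 and an adjusted p of 0.568 in limma. Both genes stand in the authors' deposited table of 180 altered targets, with log2 ratios of −0.809 for flt4 (p = 0.00265) and −0.710 for rgs5a (p = 0.0118). These are the 2 genes of the set in that table. Its ratios match the differences of the same 6 arrays, so that here and below it is not separate evidence.

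Each of the 6 single probes behind these 2 targets gave a lower mean in lead-exposed brains. For flt4 the probes numbered 389, 2160 and 3733 in their identifiers differed by −0.38, −0.73 and −0.91. The middle probe read 11.95, 11.82 and 11.92 in lead-exposed brains, against 12.71, 12.71 and 12.44 in controls. For rgs5a the probes numbered 133, 1238 and 2395 differed by −0.86, −0.63 and −0.85. The groups did not overlap for any of the 6 probes. Over all 113549 probes with a target, 8.24% did not overlap with lower values in lead-exposed brains, and 9.10% with higher values. Probes of 1 target read the same RNA of the same fish and are not replicates of the exposure.

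**Figure D2:**
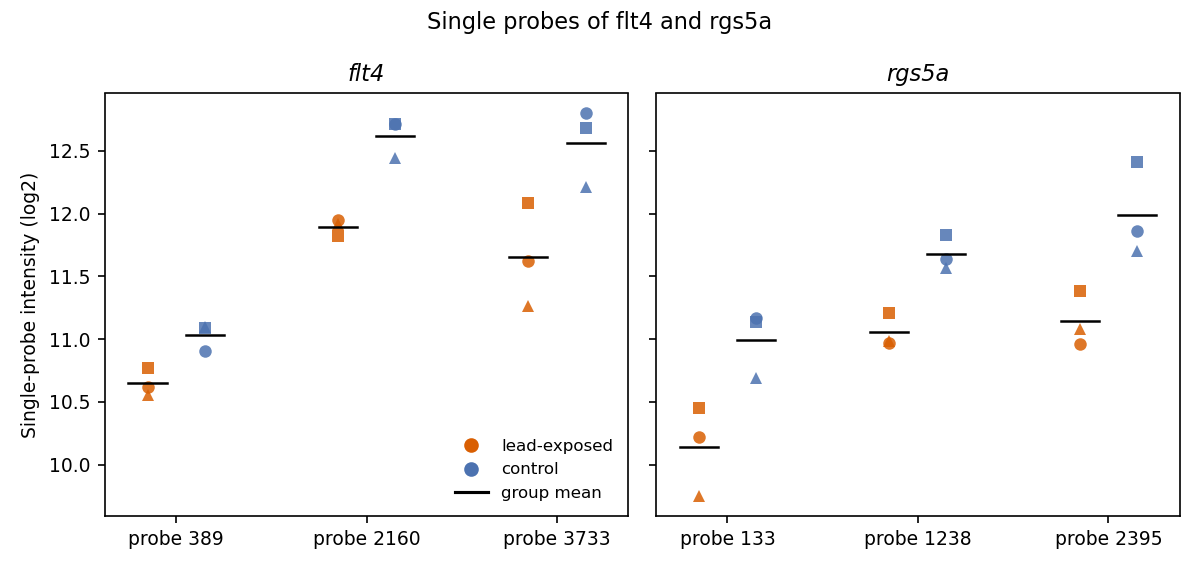
Intensity of single probes (log2, vertical axis) for the 3 probes of flt4 and the 3 probes of rgs5a, with lead-exposed left of control, marker shapes for replicates 1 to 3 and bars at group means. In each of the 6 probes the 3 lead-exposed points lie below the 3 control points.

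Of the other VEGF receptor genes, flt1 and kdrl had higher values in lead-exposed brains, and kdr had no settled direction. For flt1 the values were 10.07, 9.99 and 10.39 in lead-exposed brains, against 9.46, 9.85 and 9.78 in controls. The groups did not overlap, but no array was above the random-sequence limit for this target, and the difference was 0.45 (SE 0.17), with an unadjusted p of 0.0326 and an adjusted p of 0.674 in limma. The 3 flt1 probes differed by 0.41 to 0.60, and the groups did not overlap in 2 of them.

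For kdrl, the receptor gene most used to mark endothelium in zebrafish, the brighter target read 12.98, 12.72 and 13.19 in lead-exposed brains, against 12.47, 12.73 and 12.69 in controls. Lead-exposed brain 2 fell among the controls there, and the difference was 0.33 (SE 0.16) with an unadjusted p of 0.082 and an adjusted p of 0.725 in limma. The second kdrl target read 12.48, 12.46 and 12.63 in lead-exposed brains, against 12.24, 11.98 and 12.28 in controls. These groups did not overlap, and the difference was 0.36 (SE 0.14), with an unadjusted p of 0.0365 and an adjusted p of 0.677 in limma. Both targets were above the random-sequence limit on all 6 arrays. Among the probes of the second target, the one numbered 5518 differed by −0.12 and the others by 0.30 and 0.41, and averaged from single probes this target differed by 0.20.

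The 3 targets of kdr differed by 0.25, 0.26 and −0.02, with SE between 0.30 and 0.38. The brightest read 11.77, 11.07 and 12.43 in lead-exposed brains, against 11.10, 11.36 and 12.05 in controls. The groups overlapped widely, and the 95% interval was wide, −0.66 to 1.17. Without lead-exposed brain 3 the difference was −0.08. Set against this target on each array, flt4 stood at −0.22, 0.35 and −1.16 in lead-exposed brains, against 1.21, 0.95 and −0.004 in controls. The difference between the groups in flt4 relative to kdr was −1.06, with p = 0.2 in a 2-sided exact permutation test. With 3 fish a group that test cannot go below 0.1, so it could not have passed 0.05, and whether the genes differ was not settled by it.

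The remaining endothelial genes showed no common direction. For cdh5 the values were 10.92, 10.61 and 11.16 in lead-exposed brains, against 10.35, 10.76 and 11.27 in controls, a difference of 0.11 (SE 0.26) with widely overlapping groups. For robo4 they were 12.44, 13.33 and 12.80 in lead-exposed brains, against 13.44, 13.55 and 13.24 in controls. Lead-exposed brain 2 lay within the controls, the difference was −0.55 (SE 0.24), and the unadjusted p in limma was 0.0529, with an adjusted p of 0.702. Without lead-exposed brain 1 the robo4 difference was −0.34, and its probe numbered 51 read 10.88 in that brain, against 12.91 to 13.13 in controls.

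Of the blood-brain barrier genes, cldn5b read 8.89, 9.15 and 8.88 in lead-exposed brains, against 8.52, 8.72 and 8.51 in controls. The groups did not overlap, and the difference was 0.39 (SE 0.14), with an unadjusted p of 0.0268 and an adjusted p of 0.645 in limma. This target was dim, above the random-sequence limit on 0 of 6 arrays, and its probes disagreed, with 1.18 for the brightest, 0.31 for another and −0.28 for the probe numbered 807. The paralogue cldn5a, which was above the limit on all 6 arrays, read 12.02, 12.26 and 12.55 in lead-exposed brains, against 11.96, 12.15 and 11.94 in controls. Its groups overlapped, with a difference of 0.26 (SE 0.17). Leaving out lead-exposed brain 3 gave 0.12, and the pair of arrays numbered 1 gave 0.056. The lipid transporter gene mfsd2aa read 12.75, 13.51 and 12.41 in lead-exposed brains, against 13.11, 13.20 and 12.89 in controls, a difference of −0.17 (SE 0.28) with both the highest and the lowest value in lead-exposed brains. Without lead-exposed brain 3 it was 0.07.

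For the second pericyte gene, pdgfrb, no direction was settled, and its 95% interval included the rgs5a difference of −0.71. The brighter pdgfrb target read 11.26, 10.58 and 11.79 in lead-exposed brains, against 11.29, 10.49 and 11.73 in controls. The difference was 0.04 (SE 0.40, 95% interval −0.92 to 0.99), and that of the dimmer pdgfrb target was 0.15 (SE 0.45). Both targets overlap on chromosome 14, at 25786756 to 25805955 and at 25776454 to 25805955. Without control 2 they differed by −0.31 and −0.24. Relative to the brighter pdgfrb target, rgs5a stood at −0.29, 0.66 and −0.86 in lead-exposed brains, against 0.42, 1.51 and −0.18 in controls. That difference was −0.75, with p = 0.4 in the same exact permutation test, which again could not have passed 0.05. It was −0.28 without control 2 and −0.40 without lead-exposed brain 3.

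**Figure D3:**
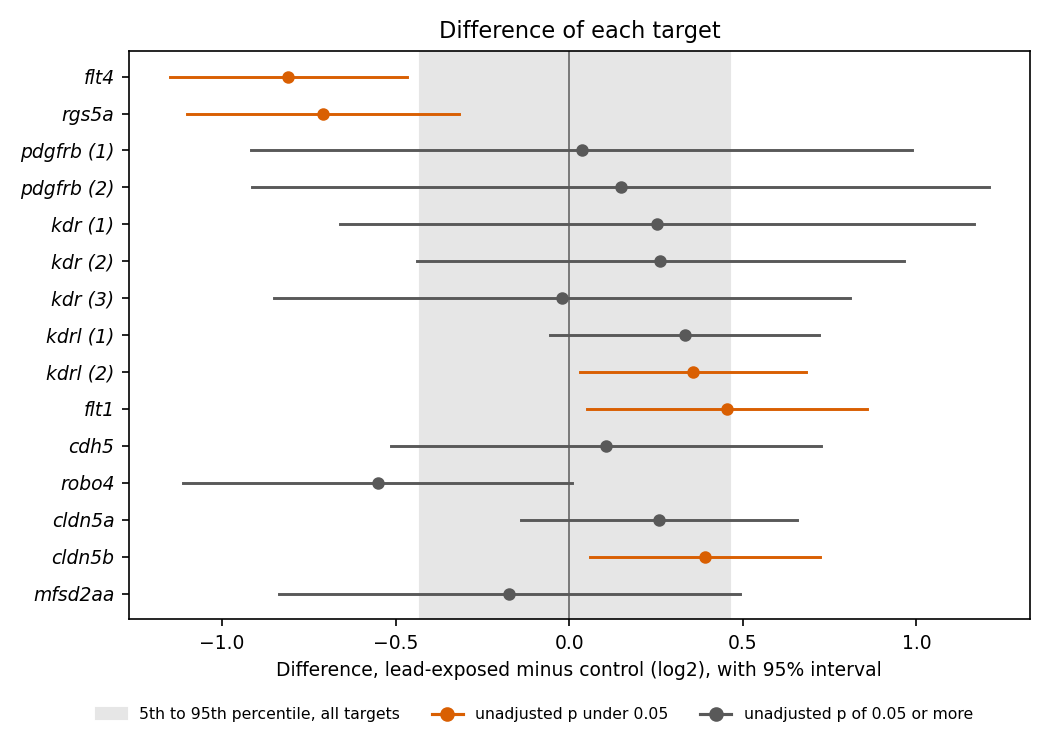
Difference between lead-exposed and control brains (log2, horizontal axis) for each of the 15 targets, with the 95% interval of the limma fit. Orange marks an unadjusted p under 0.05, and the grey band spans the 5th to 95th percentile of the differences of all targets, −0.43 to 0.46. The values of flt4 and rgs5a lie below the band, as does that of robo4, whose interval reaches 0.01.

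Counted together, 5 of the 15 targets were at unadjusted p under 0.05 in limma, against 7.19% of all targets. Of these, 2 were lower in lead-exposed brains, against 3.00% of all targets, and 3 were higher, against 4.19%. The same 5 were those whose groups did not overlap, as for 13.1% of all targets, 2 with lower values (6.09% of all targets) and 3 with higher values (7.01%). With a fold of at least 1.5 as well there were flt4 and rgs5a, both lower, against 2.59% of all targets, 1.01% with lower and 1.59% with higher values. Both were put into the set with earlier results of these data known, so their part of the count is given in advance. Among the 3 higher targets, those of flt1 and cldn5b were above the random-sequence limit on 0 arrays. The median difference of the 15 targets, which hold some genes more than once, was 0.15, against −0.004 for all targets. With 1 target for each of the 10 genes, the median was 0.071, and 4 were at unadjusted p under 0.05. For 1 target of each of the 8 genes other than flt4 and rgs5a it was 0.18. The number at unadjusted p under 0.05 was 2 without control 1, 3 without lead-exposed brain 1 or 3, and 7 without lead-exposed brain 2.

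Scanned images of 4 arrays share a prefix in their names, which those of lead-exposed brain 1 and control 1 do not have. What the prefix stands for is not given, and it was treated as a possible batch. The flt4 difference was −0.83 on the arrays with the prefix and −0.76 on the pair without it. For rgs5a these values were −0.69 and −0.74, for flt1 0.38 and 0.61, for cldn5b 0.40 and 0.38, and for the kdrl targets 0.24 and 0.51 and, for the dimmer one, 0.41 and 0.24. For robo4 they were −0.33 and −0.998, for cdh5 −0.13 and 0.57, and for the brightest kdr target 0.04 and 0.67. The pair without the prefix is 1 lead-exposed and 1 control array and has no spread of its own, so these values are given without a test of their difference.

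The order of kdr, cdh5 and pdgfrb over the fish did not follow exposure. All 3 were highest in lead-exposed brain 3 and control 3, and low in lead-exposed brain 2. Between kdr and cdh5, Pearson's r over the 6 arrays was 0.908 (exact permutation p = 0.0139) and Spearman's rho was 0.886 (exact permutation p = 0.0333). After adjustment over the 45 pairs of genes in the set, the p for r was 0.175, and r was 0.97 without the 2 arrays farthest from the median of kdr. For pdgfrb, r was 0.785 with kdr (exact permutation p = 0.075, rho = 0.714) and 0.602 with cdh5 (exact permutation p = 0.222, rho = 0.543), so the relation of pdgfrb to either gene did not pass 0.05 before adjustment. The lipid transporter gene mfsd2aa ran against kdr, with r = −0.907 (exact permutation p = 0.0194) and rho = −0.886 (exact permutation p = 0.0333), again 0.175 for r after adjustment, and r = −0.76 without the 2 farthest arrays. The arrays with and without the image name prefix are too few for a correlation within each.

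**Figure D4:**
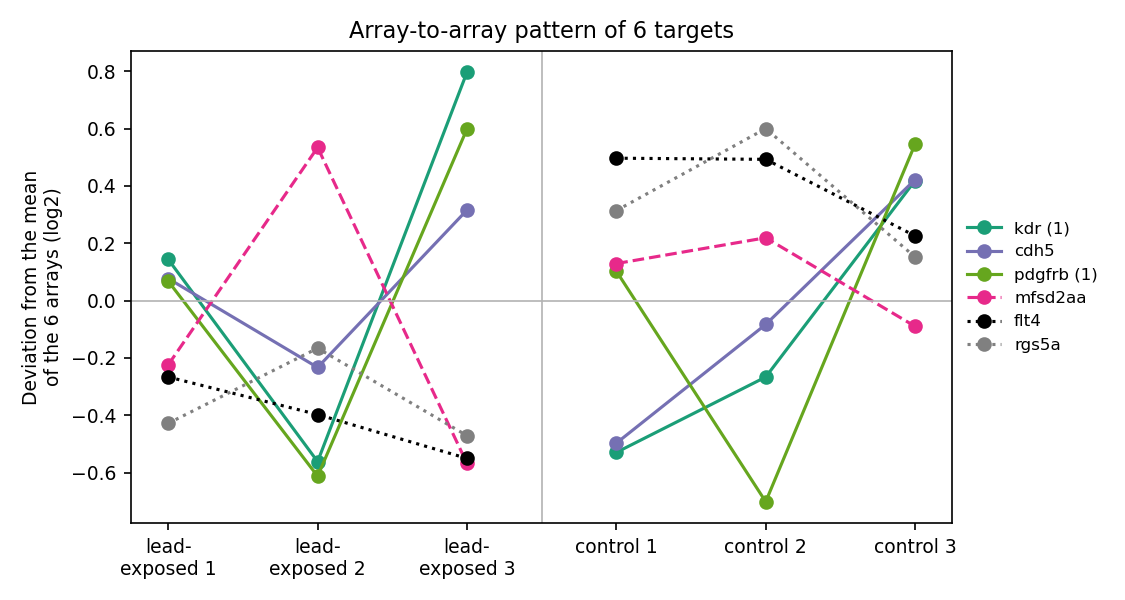
Deviation of 6 targets from their own mean over the 6 arrays (log2, vertical axis) for lead-exposed brains 1 to 3, left, and controls 1 to 3, right. Lines only join the points of 1 target within a group. The points of kdr, cdh5 and pdgfrb are high in replicate 3 of both groups, whereas those of flt4 and rgs5a are below 0 in all lead-exposed and above 0 in all control brains.

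The named targets most like flt4 over the 6 arrays were those of ddx19b, a helicase gene (r = 0.993), fermt3b, a gene of the integrin-binding kindlins (r = 0.992), and LOC795998 (r = 0.989). For rgs5a they were hnrnpa0a, a gene for an RNA-binding protein (r = 0.993), and 2 targets without a gene symbol proper. These 2, fermt3b and LOC795998 were below the random-sequence limit on every array. Of 21263 other named targets, 58 had an r above 0.95 with flt4 and 61 with rgs5a, and these were picked as the highest of all, so no test applies.

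Among other genes of the pathway, the ligand gene vegfd also had lower values in lead-exposed brains. It read 13.23, 13.81 and 13.04 in lead-exposed brains, against 14.01, 14.21 and 14.01 in controls. The groups did not overlap, all 6 arrays were above the random-sequence limit, and the difference was −0.71 (SE 0.22), with an unadjusted p of 0.0129 and an adjusted p of 0.607 in limma. It is listed in the authors' deposited table as FIGF, its older name, with a log2 ratio of −0.715 (p = 0.0418). The Flt4 ligand gene vegfc read 11.36, 12.28 and 11.35 in lead-exposed brains, against 12.18, 12.03 and 11.95 in controls. Its groups overlapped through lead-exposed brain 2, and the difference was −0.39 (SE 0.27). It was −0.17 on the arrays with the image prefix and −0.81 on the other pair. A second vegfc target, above the random-sequence limit on 0 arrays, differed by −0.53 (SE 0.17), with an unadjusted p of 0.016 in limma. Of the 14 names in the list of VEGF ligands and co-receptors 8 were measured, all above the random-sequence limit on all 6 arrays. Of these 7 had lower values, with kdrl as the exception, and 1 was at unadjusted p under 0.05, with a list median of −0.16. Of all targets, 49.2% were higher and 7.19% were at unadjusted p under 0.05 in limma, and these shares apply to every list below. Differences were −0.21 for vegfab, −0.21 for nrp1a, −0.11 for nrp1b and nrp2b, and −0.03 for nrp2a, the neuropilin genes whose products bind VEGF beside the receptors. The list took the brightest target of a gene, and a second nrp2b target, above the random-sequence limit on all 6 arrays, differed by 0.055.

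Of the 25 lymphatic and venous names other than flt4, 10 were measured, 3 with higher and 7 with lower values. Their median was −0.10. No target was matched to prox1a or mrc1a. The random-sequence limit was passed on all 6 arrays by 4 of the 10 genes, and on none by 3. The scavenger and hyaluronan receptor genes stab1, stab2 and lyve1b, which mark lymphatic, venous and sinus-type endothelium in zebrafish, differed by −0.39 (SE 0.20), −0.42 (SE 0.31) and −0.33 (SE 0.19). None was at unadjusted p under 0.05, and the groups overlapped for each of them. Other stab1 targets differed by −0.63 (SE 0.22, unadjusted p of 0.0265 in limma) and 0.05. On the arrays, lyve1b and stab2 were above the random-sequence limit on 0 and stab1 on 2, so these genes were read close to background. The matrix gene svep1, needed for lymphatic growth in zebrafish, had higher values in lead-exposed brains, though it was above the random-sequence limit on 1 of 6 arrays. It read 10.68, 10.55 and 11.11 in lead-exposed brains, against 10.18, 10.10 and 10.27 in controls, a difference of 0.60 (SE 0.17, unadjusted p of 0.011 in limma). The authors' deposited table gives a log2 ratio of 0.597 for it, and a second svep1 target differed by 0.30. The venous factor gene nr2f2 differed by 0.08 and foxc1b by −0.26. The mean level of these 10 genes, as the deviation from their means over the 6 arrays, lay between −0.15 and 0.05 in lead-exposed brains and between −0.05 and 0.11 in controls.

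Of the pan-endothelial genes outside the set, 14 were measured, 8 with higher and 6 with lower values, and a median of 0.18. The secreted endothelial factor gene egfl7 differed by 0.36 (SE 0.14, unadjusted p of 0.0335 in limma) and the transcription factor gene sox7 by −0.32 (SE 0.13, unadjusted p of 0.0457). Above the random-sequence limit were 2 arrays for egfl7 and 0 for sox7. The egfl7 difference was 0.47 on the arrays with the image prefix and 0.13 on the other pair. The next smallest p-values were those of kdrl and stab1, given above. Brighter genes of this list overlapped between groups, among them clec14a (0.19), fli1 (0.25) and aplnrb (−0.19). Other fli1 targets differed by −0.22 to 0.31, and those above the random-sequence limit on all 6 arrays by 0.12 and 0.02. The blood and endothelial factor gene tal1 differed by −0.34 and, in a second target whose groups did not overlap, by −0.36 (SE 0.12, unadjusted p of 0.0162 in limma). Of the 7 names in the list of angiopoietin and Tie genes 3 were measured, and all 3 were lower. These were the angiopoietin genes angpt2b at −0.45 (SE 0.21) and angpt1 at −0.24, and the angiopoietin-like gene angptl2b at −0.19. The list median was −0.24, with 0 at unadjusted p under 0.05 in limma. Both angpt2b and angpt1 were above the random-sequence limit on 0 arrays.

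Arterial and Notch genes had 4 higher and 7 lower values among 11, with a median of −0.08. The ligand gene bmp10 differed by −0.52 (SE 0.18, unadjusted p of 0.0236 in limma) but was above the random-sequence limit on 0 arrays, the gap junction gene gja5b by 0.50 (SE 0.23), and the Notch target genes hey1 and hey2 by −0.37 and −0.36. The ligand genes dll4 and efnb2a, which mark arterial endothelium, differed by −0.03 and −0.19.

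Blood-brain barrier genes outside the set were higher for 13 of 14, with a median of 0.13, where 49.2% of all targets were higher. The single one at unadjusted p under 0.05 was the tight junction gene oclna, which read 9.32, 9.33 and 9.97 in lead-exposed brains, against 8.68, 8.68 and 8.18 in controls. Its difference of 1.02 (SE 0.24, unadjusted p of 0.00346 in limma) was measured at a level above the random-sequence limit on 0 arrays, and the authors' deposited table gives a log2 ratio of 1.02. The second occludin gene, oclnb, differed by 0.26 and was also above the limit on 0 arrays. The count rests on the brightest target of each gene. For slco1c1 that target differed by 0.03 and another by −0.05. For abcc4 it differed by 0.11, and others by −0.23 and 0.07. The glucose transporter gene slc2a1a was bright on all arrays and read 15.01, 14.52 and 15.12 in lead-exposed brains, against 14.43, 14.29 and 14.91 in controls, with overlapping groups and a difference of 0.34 (SE 0.23). The efflux transporter genes abcc1 and abcg2a differed by 0.47 (SE 0.44) and 0.31 (SE 0.35). Without lead-exposed brain 3 these values were 0.14 for abcc1 and 0.044 for abcg2a, and without control 1 they were 0.19 and 0.093. The mean level of the 14 genes was 0.17, −0.13 and 0.30 in lead-exposed brains, against −0.20, −0.05 and −0.08 in controls, so that lead-exposed brain 2 lay among the controls.

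Pericyte and smooth muscle genes outside the set went both ways, with 10 higher and 5 lower among 15 and a median of 0.13. The channel gene kcnj8, whose product forms the vascular ATP-sensitive potassium channel of pericytes, read 9.44, 9.91 and 10.14 in lead-exposed brains, against 10.32, 10.54 and 10.26 in controls. The groups did not overlap, and the difference was −0.54 (SE 0.20, unadjusted p of 0.0311 in limma), at a level above the random-sequence limit on 0 arrays. Averaged from single probes it was −0.34, and leaving out lead-exposed brain 1 gave −0.35. Its partner subunit gene abcc9 differed by 0.16 (SE 0.24), and the paralogue of rgs5a, rgs5b, by 0.32 (SE 0.29). The receptor gene pdgfra, which marks fibroblast-like and oligodendrocyte precursor cells, differed by −0.64 (SE 0.14, unadjusted p of 0.00217 in limma) and was above the limit on 0 arrays. The forkhead factor gene foxf2a, above the limit on 0 arrays, differed by −0.43 (SE 0.28), and by −0.13 without control 2. The contractile genes acta2 and myh11a each differed by 0.24, and tagln2 differed by 0.37, all with overlapping groups.

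The list of signals from endothelium and tissue to pericytes holds ligand genes and the receptor genes tgfbr1a, tgfbr2b and s1pr1. Of its 11 measured genes 8 were lower, these receptor genes among them, where 49.2% of all targets were higher. None was at unadjusted p under 0.05 in limma. The list median was −0.15, and −0.27 to −0.033 with 1 array left out. Among the lower genes, tgfb1a differed by −0.29 (SE 0.14) with groups that did not overlap, and its receptor gene tgfbr2b by −0.48 (SE 0.24). The values were −0.32 for tgfb3 and −0.28 for the sphingosine receptor gene s1pr1. The tgfbr2b difference was −0.16 on the arrays with the image prefix and −1.13 on the other pair. The gene of the Pdgfrb ligand, pdgfba, differed by 0.24 (SE 0.27), but by −0.07 without control 3, and a second pdgfba target by −0.03. Of 5 relatives of the receptor kinases, 3 were higher and 2 lower, with pdgfra and kita (−0.53, SE 0.18) at unadjusted p under 0.05, both above the random-sequence limit on 0 arrays. A second kita target, also above the limit on 0 arrays, differed by 0.063.

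**Figure D5:**
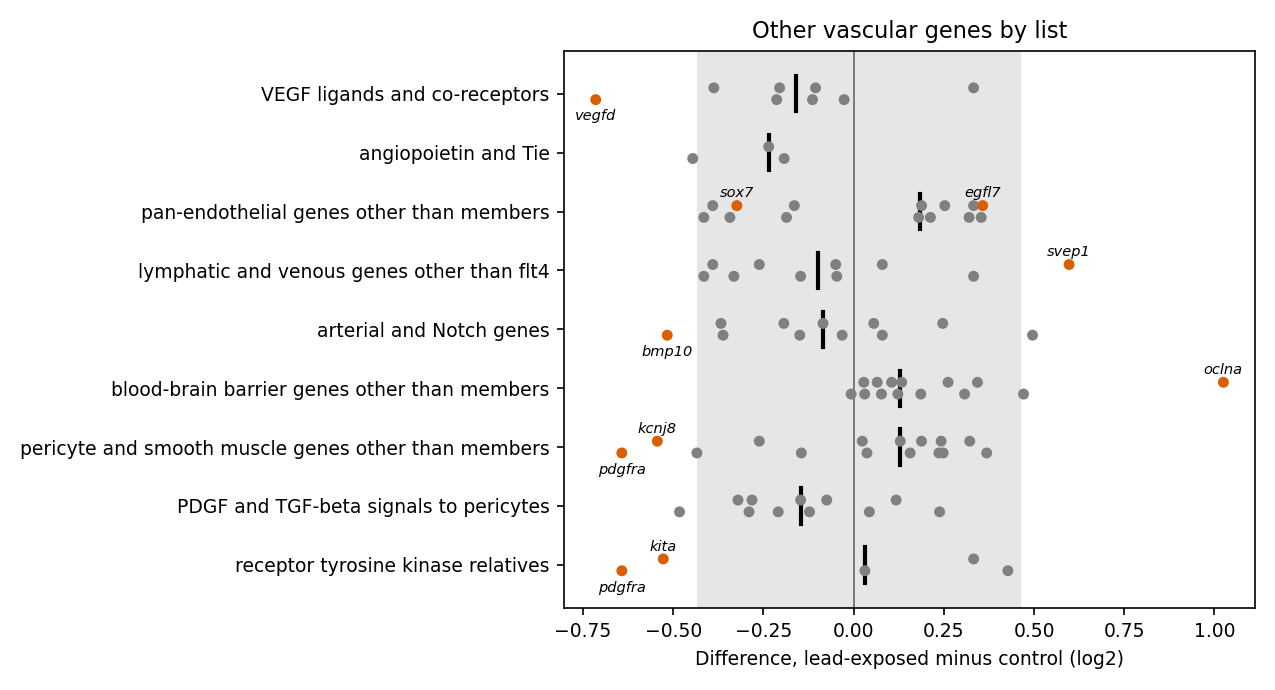
Difference between lead-exposed and control brains (log2, horizontal axis) for each measured gene of 9 lists of other vascular genes, with 1 target per gene, black bars at list medians, and genes at unadjusted p under 0.05 in orange with their names. The grey band is the 5th to 95th percentile of all targets. Of the genes in orange, sox7 and egfl7 lie within the band, oclna and svep1 right of it, and vegfd, bmp10, kcnj8, pdgfra and kita left of it. Some genes without a name, such as gja5b and tgfbr2b, also lie outside the band. Of 14 blood-brain barrier genes, 13 lie right of 0, and 8 of the 14 were above the random-sequence limit on all arrays.

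Markers of other cells in the samples were measured for comparison. Of 7 red blood cell genes 3 were higher and 4 lower, none at unadjusted p under 0.05, and their mean level was 0.29, 0.37 and −0.52 in lead-exposed brains, against −0.45, −0.27 and 0.57 in controls. Of 4 microglia and leukocyte genes 3 were lower, and apoeb, a lipid carrier gene of microglia, differed by −0.74 (SE 0.28, unadjusted p of 0.0333 in limma). The mean level of these 4 was −0.10, 0.71 and −1.14 in lead-exposed brains, against 0.08, 0.47 and −0.03 in controls. Neuronal genes were lower for 3 of 3, with differences of −0.09 to −0.05, astroglial genes for 3 of 4 with a median of −0.13, and oligodendrocyte genes were higher for 3 of 3 with a median of 0.08. The part of these cells in the values of flt4 and rgs5a was not tested.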

How the data were processed

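RNA of 6 whole male brains was measured on 1-colour NimbleGen arrays. The authors deposited intensity values per target on a linear scale for each array. RMA, which corrects background, quantile normalizes and summarises the probes of a target, is named in the submitters' processing notes. The authors also deposited a series value table with the intensity of single probes. The deposited list of altered targets gives log2 ratios, signed fold changes and p-values. Which test gave them is not stated in the labels or headers. Another sheet with the same values was not used.

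The log2 of the deposited intensity was fitted in R 4.3.3 with limma 3.58.1 (lmFit, then eBayes) on all 38489 targets and 6 arrays with no covariate, 2-sided, with Benjamini-Hochberg adjustment over all targets and a threshold of 0.05. Differences are lead-exposed minus control. The fit was checked on simulated data. Symbols were updated through RefSeq accessions (2663 of 3055 matched) and synonyms of the GRCz12tu gene table, taking the gene on the target's own chromosome where a name was ambiguous (155 targets). The printed coordinates are Zv7, as the array annotation gives them. Lists took the brightest target of a gene. Named were all targets of the set, up to 4 genes per list with the smallest p and fixed partner genes such as vegfc, kcnj8 and pdgfba. Further genes of the lists were named after their values were seen. The genes, the lists and the rule were chosen with earlier results of these data known. With 3 arrays a group, precision is limited by their number. Alternatives covered normalization, centring, dim targets, array weights, the variance prior, replicate and prefix blocks, and leaving out each array.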

Additional observations from a re-analysis of the deposited data

How the results depend on the processing

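No target of the array passed the adjusted threshold in limma under any of 15 alternatives with a test, and 2768 were at unadjusted p under 0.05 in the fit reported, against 741 with the dimmer 50% of targets left out (fewer targets were tested), 1203 on the arrays with the image name prefix alone, 5934 with array weights and 1813 to 5045 with 1 array left out. The count of targets of the set at unadjusted p under 0.05, 5 in the fit reported, was 3 with the dimmer 50% left out, 2 on the arrays with the prefix and 2 to 7 with 1 array left out. The difference stayed below 0 under all 16 alternatives for flt4 (−0.90 to −0.67) and rgs5a (−0.81 to −0.59), with adjusted p between 0.243 and 1.00. For robo4 it also stayed below 0 (−0.998 to −0.33). It stayed above 0 for flt1 (0.33 to 0.61), cldn5b (0.30 to 0.46) and both kdrl targets (0.20 to 0.51). The same held for cldn5a (0.056 to 0.39) and for the kdr target of middle brightness (0.041 to 0.63). The contrast of flt4 with kdr ran between −1.43 and −0.65 and that of rgs5a with pdgfrb between −1.16 and −0.28. Other targets changed sign, and the cause was not tested: kdr at −0.083 in its brightest target without lead-exposed brain 3 (up to 0.60 without brain 2), and in its dimmest target at 0.000446 centred on random-sequence probes, 0.26 with array weights, 0.34 on the arrays without the prefix and −0.29 to 0.30 with 1 array left out (0.046 without lead-exposed brain 1 and 0.18 without brain 2). The others were cdh5, at −0.13 on the arrays with the prefix, −0.12 without control 1, −0.026 without lead-exposed brain 3 and up to 0.34 with another array left out, and mfsd2aa, at 0.069 without lead-exposed brain 3 and −0.48 without brain 2. The pdgfrb targets were at −0.31 and −0.24 without control 2, −0.25 and −0.20 without lead-exposed brain 3, and −0.035 and −0.079 on the arrays without the prefix, and reached 0.35 and 0.54 with another array left out. Medians of several lists moved by more than the spread between arrays. On the 2 arrays without the prefix they were 0.0055 for pan-endothelial, −0.35 for arterial, 0.38 for blood-brain barrier, −0.058 for pericyte and smooth muscle, −0.40 for signals to pericytes and 0.34 for kinase relatives. With array weights the pan-endothelial median was 0.094 and the pericyte one 0.036. With the dimmer 50% left out the pericyte median was 0.21 and that of kinase relatives 0.33, and kinase relatives gave −0.19 in the series value table and −0.12 on the arrays with the prefix. With 1 array left out the medians ran from 0.083 to 0.16 for pan-endothelial, −0.18 to 0.0082 for lymphatic and venous, 0.12 to 0.30 for blood-brain barrier, 0.050 to 0.12 for pericyte and −0.13 to 0.22 for kinase relatives. They ran from −0.26 to −0.065 for VEGF ligands and −0.44 to −0.092 for the angiopoietin and Tie list. For arterial genes they ran from −0.13 to −0.0091, and for signals to pericytes from −0.27 to −0.033.

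Over all targets, replicate numbers showed no common pairing of the fish. Same-numbered deviations correlated at −0.15, 0.14 and 0.26 across targets, and lead-exposed 1 and 2 correlated best with another number. A factor shared by same-numbered arrays in single genes was not tested. Under a replicate block the SE was 0.13, against 0.40, for the brighter pdgfrb target and 0.22, against 0.38, for the brightest kdr target. For flt4 it was 0.13, against 0.14. With the replicate block the flt4 difference was −0.81 and that of rgs5a −0.71, with an adjusted p of 0.601 each.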
